A study of Mus musculus with 2 samples.

Results

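The 9 genes described here encode 4 Janus kinases (Jak1, Jak2, Jak3 and Tyk2) and 5 signal transducers and activators of transcription (Stat2, Stat3, Stat5a, Stat5b and Stat6). They were chosen by symbol from the 43346 mouse genes in the gene tables, and a row was found for all 9. Libraries were made from ribosomal RNA-depleted total RNA of G1E, an immortalized erythroid progenitor line of strain C57BL/6J that the labels mark as Gata1-. GATA1 is the transcription factor that drives erythroid maturation. There was 1 group of 2 cultures, numbered by the labels as biological replicates 1 and 2, and no second condition, so levels are compared between genes and between the libraries.

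Janus kinases are held on the inner ends of cytokine receptors and phosphorylate tyrosines there when a cytokine brings receptor chains together. STAT proteins dock on those tyrosines, are phosphorylated on a tyrosine near their own C-terminal end, pair up and enter the nucleus as transcription factors. In erythroid progenitors the erythropoietin receptor works through JAK2 and STAT5, and loss of Jak2 in mice stops definitive red cell formation. Signalling is ended by phosphatases and by SOCS proteins, many of which are themselves STAT targets.

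The gene tables held 58094631 and 55274368 expected counts in replicates 1 and 2. The line was checked against markers of its label. Of 17 erythroid progenitor markers, 15 reached 1 TPM (a transcript abundance corrected for length and scaled to the same total in each library) in both libraries, with a summed level of 903 and 908 TPM. Slc4a1 and Alas2, genes of late erythroid cells, stood at 0.22 and 0.25 TPM and at 0.20 and 0.15 TPM. Gata1 itself held 1862 and 1922 counts, which cannot check the label because the labels do not say how the gene was changed. Of 7 mast cell markers 5 were detected, with sums of 163 and 148 TPM, and 3 of 6 megakaryocyte markers were detected with sums of 76.6 and 74.7 TPM. Only Lyz2 of 8 macrophage and granulocyte markers was detected, with sums of 2.77 and 2.72 TPM, and none of 9 lymphoid and 6 fibroblast markers was. Gzma, Dcn and S100a8 were at 0 counts in both libraries. The part that mast cell or megakaryocyte gene expression takes in the values below was not tested.

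All 9 genes were detected, meaning at least 1 TPM in both libraries, a level that 38.7% of 21461 nuclear protein-coding genes reached. The levels fell into 2 ranges that did not overlap in either library. Jak2, Stat5a, Stat6, Jak1, Stat3 and Stat5b lay between 9.08 and 22.74 TPM, and Jak3, Tyk2 and Stat2 lay between 1.93 and 2.9 TPM. The lowest library value of the upper 6 was 3.13 times the highest of the lower 3. By mean TPM the 9 genes ran from Stat2, above 66.2% of nuclear protein-coding genes, to Jak2, above 93.0% of them. In RNA from a whole culture, fewer cells expressing a gene and less RNA per cell cannot be told apart.

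**Figure D1:**
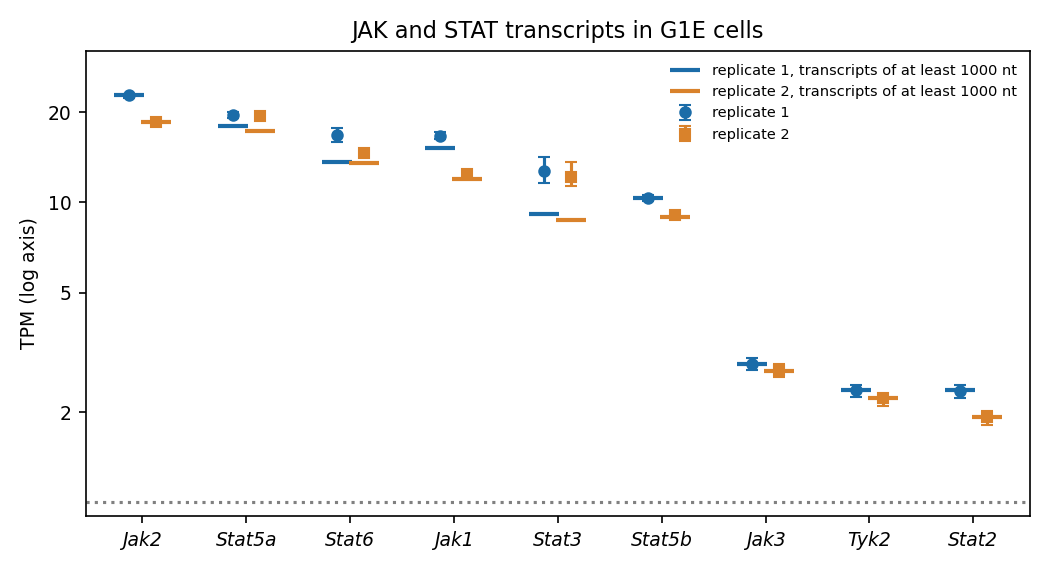
TPM of each gene (log axis) in replicate 1 (circles) and replicate 2 (squares), with the authors' interval as error bars; short horizontal lines give the TPM summed over transcripts of at least 1000 nt, and the dotted line marks 1 TPM. Genes are ordered by mean TPM: 6 lie at 9.08 TPM or above and 3 at 2.9 TPM or below, and for Stat3 the horizontal lines lie below the points in both libraries.

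Among the kinases, Jak2 stood highest. Jak2 (ENSMUSG00000024789.8, chromosome 19, 29251828 to 29313080, plus strand, mm10), the kinase of the erythropoietin receptor and of the common beta chain, had 18493 and 15295 expected counts in replicates 1 and 2. That is 22.74 and 18.56 TPM, a mean of 20.65 ± 2.96 (SD, n = 2). The authors' intervals, 22.26 to 22.92 and 18.09 to 18.67 TPM, did not overlap between the libraries.

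Jak1 (ENSMUSG00000028530.10, chromosome 4, 101152367 to 101265282, minus strand), which serves interferon, gp130 and common gamma chain receptors, had 11840 and 9427 counts. Its level was 16.65 and 12.44 TPM, or 14.5 ± 2.98 (SD, n = 2), the widest spread between libraries of the 9 genes. Both abundant kinases were thus higher in replicate 1, whereas Jak3 and Tyk2 were nearly equal between libraries.

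Jak3 (ENSMUSG00000031805.13, chromosome 8, 71676296 to 71690575, plus strand) binds the common gamma chain of interleukin receptors and is best known from lymphocytes. It held 1769.67 and 1697.48 counts and stood at 2.90 and 2.77 TPM (2.835 ± 0.0919). Tyk2 (ENSMUSG00000032175.10, chromosome 9, 21104068 to 21131243, minus strand), a kinase of type I interferon and interleukin-12 receptors, held 1761 and 1674 counts at 2.37 and 2.22 TPM (2.295 ± 0.106). Both stood well above the floor of 3 counts, which for Jak3 is worth 0.0049 TPM in each library and for Tyk2 0.0040 TPM. Such floors cover counting error only, as the labels name no molecular identifiers.

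As a share of the summed TPM of the 4 kinases, Jak2 held 50.9% and 51.6%, Jak1 37.3% and 34.6%, Jak3 6.49% and 7.70%, and Tyk2 5.31% and 6.17% in replicates 1 and 2. The sum itself was 44.66 and 35.99 TPM. Each share differed by less than 3 percentage points between cultures. In proportion to their size, the small shares of Jak3 and Tyk2 changed more than those of Jak2 and Jak1. 

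Among the STAT genes, Stat5a stood highest. Stat5a (ENSMUSG00000004043.10, chromosome 11, 100859351 to 100885169, plus strand), a mediator of erythropoietin and interleukin-3 signals, had 10834.8 and 10651.9 counts. Its level was 19.61 and 19.40 TPM (19.5 ± 0.148, SD, n = 2), nearly equal in both cultures. Its paralog Stat5b (ENSMUSG00000020919.7, chromosome 11, 100780731 to 100850724, minus strand) had 8466.19 and 7428.09 counts and stood at 10.36 and 9.08 TPM (9.72 ± 0.905). Stat5a was the higher of this pair in both libraries.

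Stat6 (ENSMUSG00000002147.14, chromosome 10, 127642986 to 127660957, plus strand), which transmits interleukin-4 and interleukin-13 signals, had 8424 and 8330 counts. It stood at 16.74 and 14.60 TPM (15.7 ± 1.51). Stat3 (ENSMUSG00000004040.12, chromosome 11, 100885098 to 100939540, minus strand), the main STAT of interleukin-6 family cytokines, had 6519 and 6236 counts at 12.75 and 12.19 TPM (12.5 ± 0.396). The authors' intervals for Stat3 were wide, 11.63 to 14.16 and 11.36 to 13.58 TPM, although its counts were assigned to the gene with a posterior SD of 0.

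Stat2 (ENSMUSG00000040033.11, chromosome 10, 128270559 to 128292849, plus strand), which joins IRF9 in the type I interferon response, was lowest. It had 1666 and 1381 counts at 2.36 and 1.93 TPM (2.145 ± 0.304). Of the summed TPM of the 5 STAT genes, Stat5a held 31.7% and 33.9%, Stat6 27.1% and 25.5%, Stat3 20.6% and 21.3%, Stat5b 16.8% and 15.9%, and Stat2 3.82% and 3.37% in replicates 1 and 2. Together the 5 STAT genes reached 61.82 and 57.2 TPM, which is 1.38 and 1.59 times the sum of the kinases.

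The order of the levels was set against the error between libraries. For each of the 36 pairs the mean log2 ratio of TPM + 1 was compared with 2 standard errors of a difference between gene means, from the SD between libraries pooled over all detected genes, 0.17 (log2) from 1 to 10 TPM and 0.24 from 10 to 100 TPM. The order had to be the same in both libraries. The pooled SD was not centred, so it includes the lower TPM of most protein-coding genes in replicate 2. Such a general shift cancels within a pair, which makes the limit wide. By this limit, which is a description and not a test, 24 of the 36 pairs held.

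Only 1 of the 8 steps between neighbours in the order held, that from Stat5b to Jak3, with a mean log2 ratio of 1.48 ± 0.087 against a limit of 0.35. Within the upper range, Jak2 and Stat5a could not be ordered, as their log2 ratio was 0.20 in replicate 1 and -0.06 in replicate 2. Jak2 and Jak1 differed by 0.48 ± 0.080, just inside the limit of 0.49, and this pair held under other settings given below. Stat5a exceeded Stat3 by 0.61 ± 0.032 and Jak1 exceeded Stat5b by 0.53 ± 0.16, differences that held over both libraries but not from either library alone. Jak2 exceeded Stat3 by 0.68 ± 0.16 and Stat6 exceeded Stat5b by 0.64 ± 0.0092. The first of these did not hold from replicate 2 alone and the other did not hold from replicate 1 alone. With 1 library the limit is wider, so such a loss does not show that the libraries disagree. The log2 ratio of Stat6 over Stat5b was 0.64 in replicate 1 and 0.63 in replicate 2. In replicate 1 Stat5b, at 10.36 TPM, took the larger SD of the range from 10 to 100 TPM. In the lower range, none of the 3 pairs among Jak3, Tyk2 and Stat2 held, with ratios from 0.07 to 0.29 against a limit of 0.35.

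**Figure D2:**
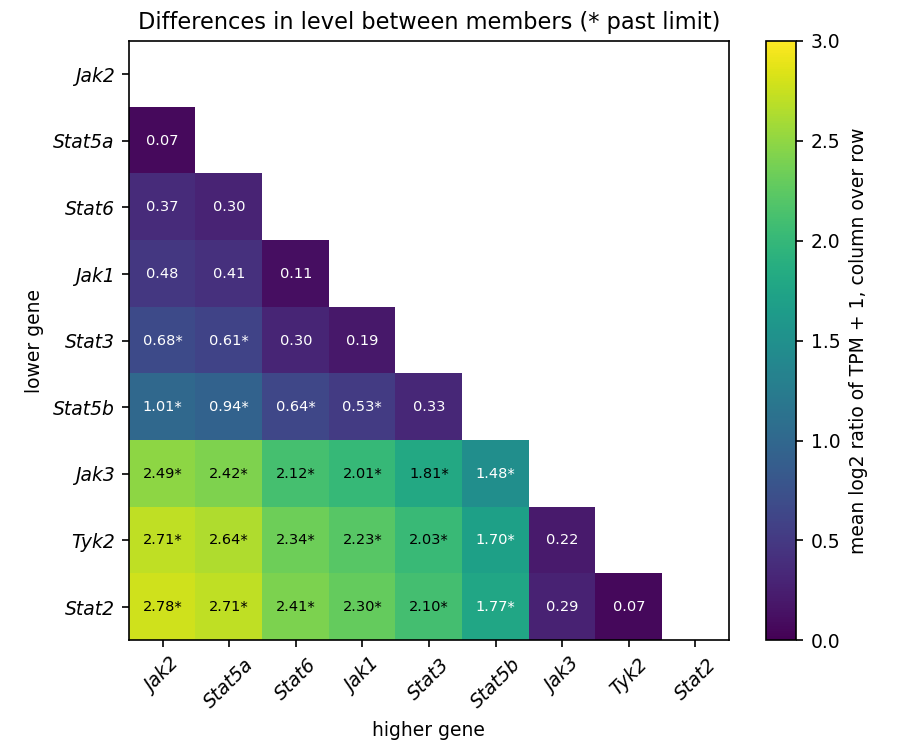
Mean log2 ratio of TPM + 1 over the 2 libraries for each of the 36 pairs, the gene of the column over the gene of the row, ordered by mean TPM. A star marks the 24 pairs past the limit; all 18 ratios of an upper-range gene over Jak3, Tyk2 or Stat2 carry one, and among neighbours the ratio of Stat5b over Jak3 alone does.

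The transcripts behind these levels differ in coding sequence at a few places, which are shown here because the isoform shares below turn in part on them. Besides the leading transcripts, those named were mostly chosen after their values were seen. Sequences are from GENCODE release M21 on GRCm38 (mm10), printed 5′ to 3′ on the transcript's strand. All 47 transcripts of the 9 genes had the same length there as in the deposited tables. In the leading Stat3 transcript, Stat3-203, capitals mark the 50 bases (chromosome 11, 100889541 to 100889590) that Stat3-202 lacks.
Stat3-203 against Stat3-202: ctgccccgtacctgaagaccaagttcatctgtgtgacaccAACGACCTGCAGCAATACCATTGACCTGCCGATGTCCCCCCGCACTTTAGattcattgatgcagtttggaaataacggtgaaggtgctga

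The missing stretch starts within codon 715, ends within codon 732 and is not a multiple of 3, so the reading frame changes and Stat3-202 ends at 722 codons instead of 770. Stat3-202 is the form known as STAT3-beta, which keeps the phosphorylated tyrosine (codon 705, TAC, in lower case above) and lacks the transactivation domain with its phosphorylated serine (codon 727, TCC, in capitals). Stat3-201 lacks 3 bases further upstream, at the end of the exon before the one that holds codon 705, capitals at 100893074 to 100893076. These remove codon 701, AGT, a serine codon shortly before that tyrosine, and leave the frame unchanged at 769 codons.
Stat3-203 against Stat3-201: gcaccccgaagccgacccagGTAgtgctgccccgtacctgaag

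In Stat5a the leading transcript, Stat5a-202, has an exon of 52 bases (chromosome 11, 100881738 to 100881789) that Stat5a-203 skips. It holds codon 694, TAC, the codon of the tyrosine that Janus kinases phosphorylate. Skipping it changes the frame, and Stat5a-203 is annotated with 797 codons against 793.
Stat5a-202 against Stat5a-203: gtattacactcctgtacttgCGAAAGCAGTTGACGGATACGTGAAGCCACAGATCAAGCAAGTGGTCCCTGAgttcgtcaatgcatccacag

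Stat2 has a pair of transcripts that differ by 3 bases at an exon start, CAG at codon 418 (chromosome 10, 128283230 to 128283232), present in Stat2-202 and absent from Stat2-201.
Stat2-202 against Stat2-201: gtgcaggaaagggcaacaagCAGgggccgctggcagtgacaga

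Each of the 9 genes had the same leading transcript in both libraries, and every leader codes for protein. The share of all genes with the same leader was not taken, so this count does not set the 9 genes apart. Jak2-202, of 5030 nt and 25 exons, held 99.2% and 99.6% of Jak2 TPM in replicates 1 and 2. Its 1132 codons are also those of Jak2-201, which lacks 1 exon before the coding sequence and held 0.83% and 0.41%. Tyk2 had a single transcript, of 4619 nt and 1207 codons, so its leader could not differ between the libraries.

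Jak1-201, of 1153 codons, held 88.1% and 92.7% of Jak1 TPM. Among the other transcripts was Jak1-207, a non-coding transcript of 504 nt that held 8.31% and 3.31% of TPM from 68.2 and 21.95 counts. Jak3-202 held 81.3% and 79.3% of Jak3, and Jak3-201, with the same 1100 codons and other ends, held 9.66% and 14.6%. Jak3-201 ends within the overlap with the gene Insl3 described below.

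Stat3 was the most divided gene. Stat3-203 held 55.9% and 53.2% of Stat3 TPM in replicates 1 and 2, followed by Stat3-213, an intron-retaining fragment of 396 nt, at 13.1% and 18.1%. Stat3-213 rested on only 52.25 and 77.18 counts, which its short length turns into 1.67 and 2.20 TPM, and the authors' interval for it ran from 0.56 to 2.78 TPM in replicate 1. The 10 Stat3 transcripts without a coding annotation held 30.0% and 30.2% of TPM but 3.49% and 3.44% of counts.

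With transcripts under 1000 nt left out, Stat3 stood at 9.13 and 8.72 TPM (8.925 ± 0.290), and Stat5b at 10.33 and 8.94 (9.635 ± 0.983). The order of Stat3 and Stat5b turned round, and their difference held neither with nor without the short transcripts. By this measure, which was added after the data were seen, 30 pairs and 3 steps between neighbours held, and Stat6 also became nearly equal between the libraries, at 13.66 and 13.51 TPM.

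The STAT3-beta form was a minor share. Stat3-202 held 6.28% and 6.72% of the TPM of Stat3-201, Stat3-202 and Stat3-203 together, from 552.55 and 570.11 counts. Stat3-207, another long coding transcript, held 0 and 11.83 counts and is left out of that sum. Stat3-202 is also the one with the longest 3′ end, so its share rests on reads from that end as well as on the 50-base difference. Stat3-201, the form without the serine codon, held 14.8% and 18.0% of the TPM of Stat3-201 and Stat3-203 together. Both ends of Stat3-201 are shorter than those of Stat3-203, with 2927 against 4516 nt in all. Its share therefore rests on reads from the ends as well as on the 3-base difference. The deposited posterior means gave 6.43% and 6.70% for STAT3-beta and 15.2% and 17.7% for the form without the serine codon.

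Stat5a-202 held 80.4% and 76.1% of Stat5a TPM. Stat5a-203, which lacks the exon of the phosphorylated tyrosine and also differs at its 5′ end, held 8.30% and 10.8% of the TPM of the 3 long coding Stat5a transcripts, from 820.11 and 1047.12 counts. Stat5b-201 led Stat5b with 96.3% and 98.4%. Stat5b-202, which starts elsewhere and also has 786 codons, held 293.13 counts in replicate 1 and 0 in replicate 2, so its presence was not repeated.

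For Stat6, Stat6-201 held 81.6% and 92.5% of TPM. Much of the difference lay in Stat6-202, an incomplete annotated transcript of 609 nt with 155.91 counts in replicate 1 and 9.34 in replicate 2, or 2.33 and 0.13 TPM. Stat2-201 held 91.7% and 99.99% of Stat2 TPM. The split of Stat2 by the 3 bases was not settled by these tables: Stat2-202 held 8.44% and 0% by deposited TPM and 12.3% and 30.4% by the posterior means, and the authors' interval for it ran from 0.0038 to 1.33 TPM in replicate 2.

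**Figure D3:**
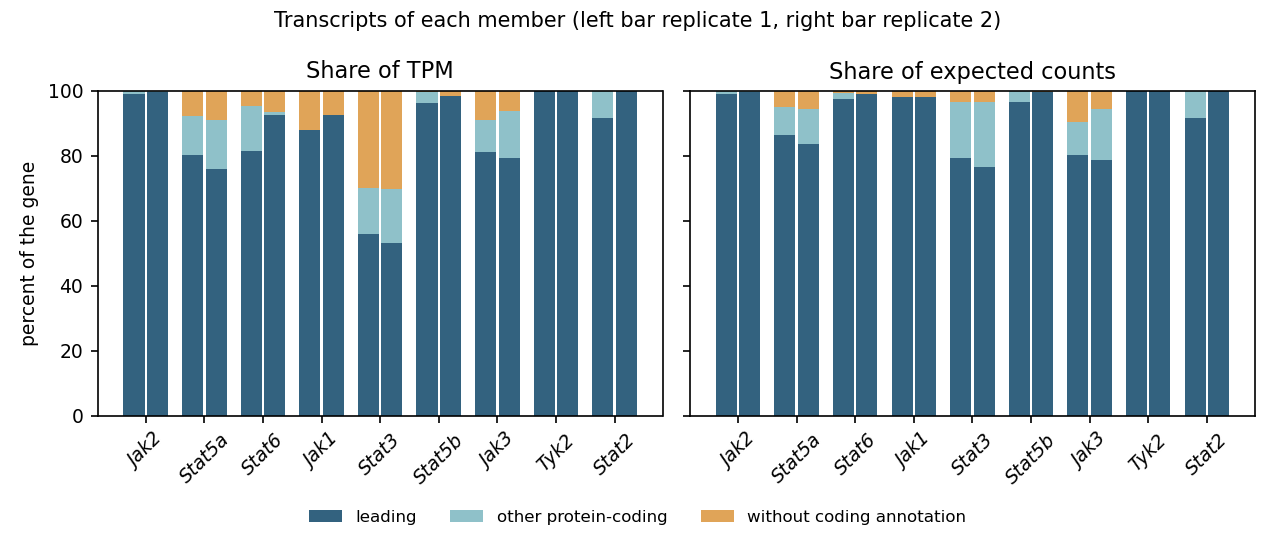
Share of each gene's TPM (left panel) and expected counts (right panel) in its leading transcript, its other protein-coding transcripts and its transcripts without a coding annotation, as percent of the gene, with replicate 1 as the left bar and replicate 2 as the right bar. Stat3 transcripts without a coding annotation take 30.0% and 30.2% of TPM and 3.49% and 3.44% of counts.

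Paralogs can share reads where their sequences are identical, and a long identical stretch was found in the Stat5 pair. Coding sequences of the leading Stat5a and Stat5b transcripts were identical at 90.7% of 2343 aligned bases, and their longest identical run was 324 bases, longer than the mean fragments of 213 and 192 nt. The run covers codons 191 to 298 in both genes, within 100874023 to 100874983 on the plus strand for Stat5a and within 100797741 to 100798701 on the minus strand for Stat5b. Its first 100 bases are printed in capitals after the 20 bases that precede it in Stat5a.
Stat5a-202 shared with Stat5b-201: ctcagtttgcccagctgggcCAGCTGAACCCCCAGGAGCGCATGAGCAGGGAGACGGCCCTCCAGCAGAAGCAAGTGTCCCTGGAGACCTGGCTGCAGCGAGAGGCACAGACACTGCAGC

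The posterior SD of the count was 12.11 and 12.05 reads for each Stat5 gene in replicates 1 and 2, at most 0.162% of its count. Among the other 15 within-family pairs, coding identity ran from 56.2% to 65.1% and no identical run exceeded 23 bases. Overlapping genes could also share reads, since whether counting used the strand is not stated in the labels or tables. Stat3 and Stat5a meet tail to tail over 72 bases, and Stat6 overlaps Nab2 (2696 and 2575 counts) by 40 bases. Jak3 shares its last 1362 bases with Insl3 on the same strand (34.33 and 58.52 counts). The leading Jak3-202 ends at 71688558, before Insl3 starts at 71689214, while the minor Jak3-201 and Jak3-204 reach into Insl3. Tyk2 lies across the antisense gene 1700084C06Rik (6 and 13 counts). The posterior SD of the count was 0 in both libraries for Stat3, Stat6 and Tyk2. For Jak3 it was 3.16 and 3.63 reads in replicates 1 and 2. How reads within the overlaps were assigned was not tested.

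Ratios between the libraries were taken on scaled counts. Each of the 9 genes had a mean count of at least 1000. None of the 9 passed a ratio of 2 in either direction. Among 18409 genes with a summed count of 10 or more 22.4% did, and among 6673 well-counted nuclear protein-coding genes, those with a mean count of at least 1000, 0.195% did. None of the 9 passed a ratio of 5 to 4 either, which 46.7% of the 18409 genes and 11.3% of the well-counted genes did, with 1.87% of the well-counted genes past it and lower in replicate 2. Ratios of counts, scaled for library depth by TMM, ran from 0.892 for Jak1 to 1.11 for Stat6, replicate 2 over replicate 1. They compare 2 libraries of 1 line and not conditions. Most well-counted genes passed neither ratio, so the lack of members past them does not set the 9 genes apart. By the ratio of TPM, Jak1 was at 0.747 and passed 5 to 4.

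Jak1, at 0.892 (95% exact counting interval 0.868 to 0.916), and Jak2, at 0.926 (0.906 to 0.946), lay below 1 beyond counting error, with 11.1% and 19.3% of the well-counted genes lower still. Stat2 was at 0.928 (0.864 to 0.997). Stat5a was at 1.10 (1.07 to 1.13), Stat6 at 1.11 (1.07 to 1.14) and Stat3 at 1.07 (1.03 to 1.11). Jak3 was at 1.07 (1.004 to 1.15), whereas the intervals of Stat5b and Tyk2 included 1. Which intervals excluded 1 depended on the scaling of the libraries. Jak1 and Jak2 stayed below 1, and Stat5a and Stat6 above it, under all 4 other scalings of the counts, but the TPM ratio was 0.989 for Stat5a and 0.872 for Stat6. With total counts as library size, Stat3 was at 1.005 (0.971 to 1.04) and Jak3 at 1.008 (0.942 to 1.08), and Stat5b was at 0.922 (0.894 to 0.951). The Stat2 interval included 1 with no filter on low counts. All 9 genes had a lower TPM in replicate 2, as did 71.9% of detected nuclear protein-coding genes. The median log2 TPM ratio was -0.19 over the 9 genes and -0.14 over those detected genes. Nuclear protein-coding genes together held 180474 and 169734 TPM in replicates 1 and 2. With TPM rescaled to that sum, Jak3 (16.07 and 16.32), Stat3 (70.6 and 71.8) and Stat5a (108.7 and 114.3) were higher in replicate 2. The other members stayed lower in replicate 2.

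**Figure D4:**
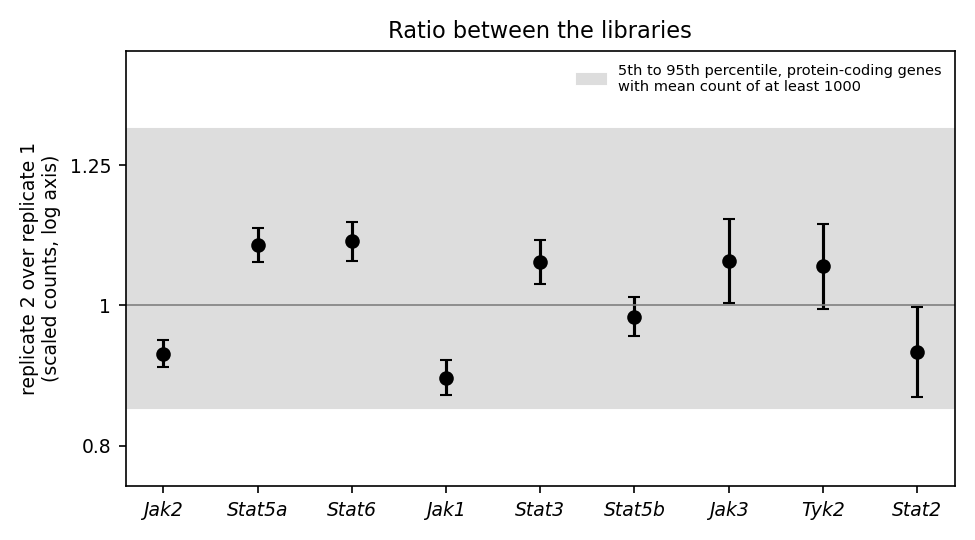
Ratio of TMM-scaled counts, replicate 2 over replicate 1 (log axis), for each gene with its 95% exact counting interval, which covers counting error only. The grey band spans the 5th to 95th percentile of well-counted nuclear protein-coding genes, 0.849 to 1.33, and all 9 points lie inside it.

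The other genes of the pathway were described by role from a list of 76. Of these, 47 were detected in both libraries (38.7% of nuclear protein-coding genes were), with a median of 2.59 TPM over the list, 0.055 TPM over nuclear protein-coding genes and 12.5 TPM over the 9 members.

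Of 31 cytokine receptors 12 were detected, or 38.7%, the same share as among nuclear protein-coding genes, and their median was 0.35 TPM against 0.055 over those genes. Csf2rb, the common beta chain that signals through JAK2, led at 24.31 and 22.78 TPM. The interleukin-10 receptor chain Il10rb stood at 18.69 and 15.28 TPM, and Ifnar1, a chain of the type I interferon receptor that binds TYK2, at 13.38 and 11.41. Il2rb, Il7r, Il13ra1 and Il6ra tied for the lowest mean, each at 0 TPM in 1 library and 0.01 in the other.

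Some receptor levels, chosen after their values were seen, are set beside their kinases per length. Epor, the erythropoietin receptor, stood at 2.24 and 3.24 TPM, against 22.74 and 18.56 for Jak2. The common gamma chain Il2rg, the partner of JAK3, stood at 3.96 and 3.67 TPM, against 2.90 and 2.77 for Jak3. The interleukin-6 signalling chain Il6st, upstream of STAT3, stood at 0.93 and 0.73 TPM.

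Inhibitors were detected in 17 of 20 cases, with a median of 4.175 TPM. The phosphatase Ptpn6 (SHP-1), which dephosphorylates JAK2 at the erythropoietin receptor, led at 65.43 and 53.58 TPM, above every JAK and STAT gene. The phosphatase Ptpn2 stood at 20.02 and 17.15 TPM and Socs2, a STAT5 target and feedback inhibitor, at 16.24 and 13.58. Ptprc, the leukocyte phosphatase CD45, was lowest at 0.18 and 0.07 TPM.

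All 10 cofactors were detected, with a median of 5.05 TPM. The chaperone Hsp90ab1 led at 285.66 and 200.61 TPM, followed by the importin Kpna1 at 9.95 and 8.56 and Irf9, the DNA-binding partner of STAT2, at 7.32 and 6.56. Sh2b1, an adaptor of JAK2, was lowest at 1.38 and 1.20 TPM. Irf9 thus stood above Stat2 in both libraries.

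Known STAT targets were split, as 8 of 15 were detected, and their median was 1.535 TPM. Mcl1, a survival gene, led at 50.86 and 44.82 TPM, followed by the cyclin Ccnd2 at 26.67 and 20.89 and the kinase Pim1 at 19.29 and 20.11. The interferon-induced genes Ifit1 and Mx1 tied for the lowest mean, with Ifit1 at 0.01 and 0.02 TPM and Mx1 at 0.03 and 0. RNA levels do not show whether any kinase or STAT was active, and other inputs act on these targets.

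**Figure D5:**
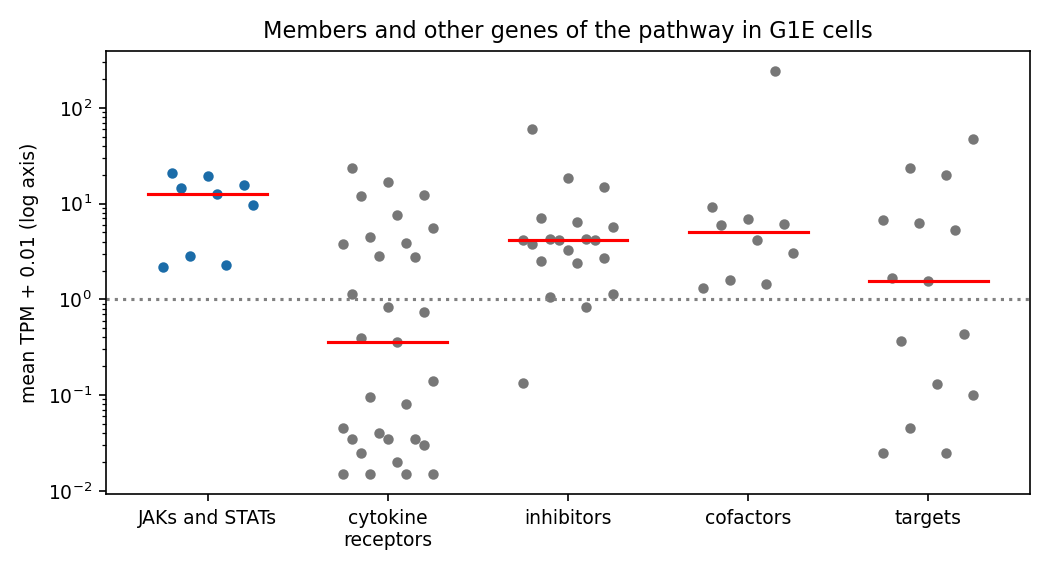
Mean TPM over the 2 libraries (plus 0.01, log axis) of the 9 members (blue) and of the receptors, inhibitors, cofactors and targets on the pathway list (grey), with the median of each group in red and 1 TPM as a dotted line. Members lie between 2.145 and 20.65 TPM, while the 31 receptors spread from 0.005 to 23.5 TPM.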

How the data were processed

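Both G1E libraries were made from 100 ng of RNA with a size range of 200 to 1000 nt, per the labels. The authors deposited expected counts (estimated reads, divided among genes or transcripts that they fit), TPM and FPKM (scaled by effective length) and the percent of each gene's abundance in each transcript, 1 library per table. Per the file headers, posterior means and intervals accompany these values; the interval's level was not given in the sources used here. The deposited read-me texts name mm10 and GENCODE M4. Names of the aligner and quantifier: not given in the sources used here.

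Symbols, coordinates and sequences came from GENCODE M21 on the same assembly; 42462 of 43346 genes matched. The other 26345 rows carry no mouse gene identifier, held 3.44e-05% and 6.80e-05% of counts and stayed out of totals. Expected counts were rounded for edgeR 4.0.16 TMM factors and DESeq2 1.42.0 size factors (R 4.3.3) and for ratios, whose calculation was tested on simulated data. Log2 ratios between genes and the pooled SD use a pseudocount of 1, and log2 ratios between libraries use none. Python 3.11.15, scipy 1.17.1 and Biopython 1.88 did the rest. With 2 libraries of 1 group no test between conditions exists. Named genes are all 9 members and, by role, the 3 highest and the lowest of the pathway list; Epor, Il2rg and Il6st were added after their values were seen. The members and lists were chosen with earlier results of these data known.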

Additional observations from a re-analysis of the deposited data

How the results depend on the processing

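All 9 genes were detected with the posterior mean TPM, the rescaled TPM and in each library alone, and 6 were at a threshold of 5 TPM. The 24 ordered pairs remained with pseudocounts of 0.1 and 0.01, and other settings gave 25 to 30 pairs. With 1 library alone, where the limit is wider, 21 held, all among the 24. No pair that held turned round, but Jak2 over Jak1 came to hold with FPKM, rescaled TPM, CPM, the SD of protein-coding genes only and the long transcripts, and Stat6 over Stat5b was lost with CPM. The 1 ordered step between neighbours stayed 1 without either replicate, became 2 with CPM without length correction, and 3 with transcripts of at least 1000 nt, a setting added after the data were seen. The 0 genes past a ratio of 5 to 4 between libraries became 1, Jak1, with the TPM ratio, at 0.747. The 47 detected pathway genes became 22 at a threshold of 5 TPM. Rescaling TPM to nuclear protein-coding genes raised all 9 levels, to between 12.2 TPM for Stat2 and 118 TPM for Jak2, and detected pathway genes to 55. Each of the 9 leading transcripts was also the leader by posterior means and by counts, which for Tyk2, with a single transcript, could not be otherwise. The minor transcripts Stat2-202 and Stat5b-202 had 137.81 and 293.13 counts in replicate 1 and 0.1 and 0 in replicate 2, and the cause was not tested. No paired analysis was possible because there is 1 group.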

Other observations

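Promoter windows of the 9 genes were searched for motifs named after the factors at hand. RefSeq gave 11 windows on GRCm38.p6, from 250 bases before to 50 after a start site, with at least 1 for each of the 9 genes. The first base of the leading transcript lay in a window for 6 genes and outside them for Jak3, Tyk2 and Stat2. None of the 11 held the STAT motif TTCNNNGAA, which 8.30% of 32851 promoter windows held, and none held a GATA motif on either strand, which 29.8% held. The GATA motif was searched as AGATAA or AGATAG and as TGATAA or TGATAG. The absence of these letters from a window says nothing of the factors' binding elsewhere.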
